A study of Homo sapiens with 2 samples.

Results

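Oxidative phosphorylation makes ATP in the inner mitochondrial membrane. Complexes I to IV pass electrons from NADH and succinate to oxygen and pump protons, and complex V, the ATP synthase, is driven by the returning protons. Nuclear genes encode most of the subunits, while a small set of core subunits is encoded by mitochondrial DNA, so the complexes are built from products of both genomes. Complex II, the succinate dehydrogenase that also serves the tricarboxylic acid cycle, is wholly nuclear-encoded and pumps no protons.

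The genes described here are the nuclear genes of these 5 complexes, taken by their names: the NDUF subunit genes for complex I, SDHA to SDHD for complex II, the UQCR genes and CYC1 for complex III, the COX4 to COX8 genes for complex IV and all names that begin with ATP5 for complex V. Of 29452 gene rows, 81 were taken: 38 for complex I, 4 for complex II, 9 for complex III, 12 for complex IV and 18 for complex V. Several names are older ones. The tables use ATP5A1, ATP5B, ATP5C1, ATP5D and ATP5E for the ATP synthase subunits alpha to epsilon, now ATP5F1A to ATP5F1E, and the other ATP5 names are likewise kept as deposited. The naming rule also took ATP5S and ATP5SL (now DMAC2L and DMAC2), which are not structural subunits, ATP5J2LP, a processed pseudogene, and NDUFA4, which is now regarded as a subunit of complex IV. It missed the subunit genes COX4I1, COX7A2L, USMG5, C14orf2 and UQCRHL, whose values are given with the related genes below.

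RNA was sequenced from MDA-MB-231, a widely used human line of triple-negative breast cancer, in 2 states: cells carrying a short hairpin RNA against the cyclin-dependent kinase gene CDK14 (CDK14-sh), and cells with a scramble control. Each group held 1 library, so no difference has a replicate check, no test between the groups can be made and no p-value is given. The sources used here do not give the hairpin sequence, the number of hairpins or the time after knockdown. The CDK14-sh library held 15478156 reads in genes and the scramble control 17217564. CDK14 itself had 58 reads (0.548 RPKM) in CDK14-sh, against 292 reads (2.48 RPKM) in the scramble control, or 22.1% of the control level. All 6 genes taken as markers of this line (VIM, CD44, AXL, CAV1, MSN and KRT18) were found, between 14.4 and 146 RPKM in CDK14-sh and between 20.0 and 249 RPKM in the scramble control. Of the genes taken as low or absent in this line, ESR1 and PGR were below 0.04 RPKM in both libraries and CDH1 had no read in CDK14-sh, against 2 in the scramble control. ERBB2 and EPCAM were found, ERBB2 at 2.96 RPKM in CDK14-sh and 2.33 RPKM in the scramble control and EPCAM at 5.46 RPKM in CDK14-sh, against 5.33 RPKM in the scramble control. GATA3, a luminal marker, was at 2.56 RPKM in CDK14-sh, against 2.4996 RPKM in the scramble control. Of the markers of other cells, DCN, LUM and VWF had no read in either library and PTPRC had 3 reads in each. CD14, a leukocyte marker, had 22 reads in each, and PECAM1, an endothelial marker, had 20 reads in CDK14-sh, against 52 reads in the scramble control. COL1A1, the highest fibroblast marker, was at 1.99 RPKM in CDK14-sh and 1.65 RPKM in the scramble control. KRT19, a keratin also used as a luminal marker, was at 30.4 RPKM in CDK14-sh and 55.3 RPKM in the scramble control. Of the 6 line markers 4 were at least 1.2-fold lower in CDK14-sh. The lowest fold was that of MSN, at 84.8 RPKM in CDK14-sh and 218 RPKM in the scramble control, 2.56-fold lower. The part of these markers in the results below was not tested.

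Levels are RPKM, reads scaled to the summed exon length of the row and to the library's total of reads in genes. A fold is CDK14-sh RPKM over scramble control RPKM, so that a fold below 1 is a lower level in CDK14-sh. The range in parentheses after a fold is its 95% Clopper-Pearson counting interval from the reads, which covers counting error only and not the spread between cultures. Ratios on the log2 scale had 0.1 RPKM added to each level, which understates the change of low genes. Counts by size (1.2-fold and 2-fold) use that scale and only rows that reach 1 RPKM in either library. In a bulk library, fewer cells of a type and less RNA per cell cannot be told apart.

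Nuclear genes of oxidative phosphorylation stood slightly higher in CDK14-sh across complexes I, III, IV and V, while complex II was split, with SDHD far lower. Of the 81 rows, 78 passed the level filter, and 69 of these (88.5%) had a ratio above 1, against 54.7% of the 14878 rows of all genes that passed. At least 1.2-fold higher were 40 of the 78 (51.3%), against 27.2% of all rows, and 4 were at least 1.2-fold lower, against 22.3% of all rows. Against protein-coding rows alone the shares are alike: 54.2% of them had a ratio above 1, 24.3% were at least 1.2-fold higher and 20.7% lower by that size. None of the 78 was 2-fold higher, a size that 3.21% of all rows and 1.05% of protein-coding rows reached. SDHD alone was 2-fold lower, as were 3.47% of all rows and 2.16% of protein-coding rows. The median log2 ratio of the 78 was 0.27, against 0.04 for all rows and 0.04 for the 10616 protein-coding rows. The summed level was 2703 RPKM in CDK14-sh and 2260 RPKM in the scramble control, a fold of 1.196. In reads, these genes took 0.566% of the CDK14-sh library and 0.493% of the scramble control.

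The size of the shift depended on how the libraries were scaled. When each library was rescaled to the same sum of RPKM (the TPM scale), every ratio moved by -0.15 on the log2 scale and the median of all rows became -0.11. The median of the 78 genes was then 0.12 and 60 of them (76.9%) had a ratio above 1, against 38.8% of all rows. The count at least 1.2-fold higher was 14 of 78 (17.9%) in TPM, against 16.3% of all rows and 12.6% of protein-coding rows. This count no longer stood clear of all rows. At least 1.2-fold lower in TPM were 6 of the 78, against 5070 of 14878 rows. With ratios centred on the median of all rows, 29 of 78 (37.2%) were at least 1.2-fold higher, against 23.5% of all rows. Shifting by a trimmed mean of the ratios gave the same count, against 23.7% of all rows. Mitochondrially encoded transcripts weigh heavily in the RPKM sums: rows named MT- held 368782 of 605835 RPKM in CDK14-sh, against 310436 of 545072 RPKM in the scramble control. In reads they took 17.1% in CDK14-sh, against 14.5% in the scramble control. With those reads left out of the totals, the median was 0.31 and 49 of 78 genes (62.8%) were at least 1.2-fold higher, against 31.2% of all rows. On the TPM scale 9 further genes had a ratio below 1: SDHC, CYC1, COX6A1, NDUFB5, NDUFA11, ATP5SL, ATP5B, ATP5D and ATP5A1.

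**Figure D1:**
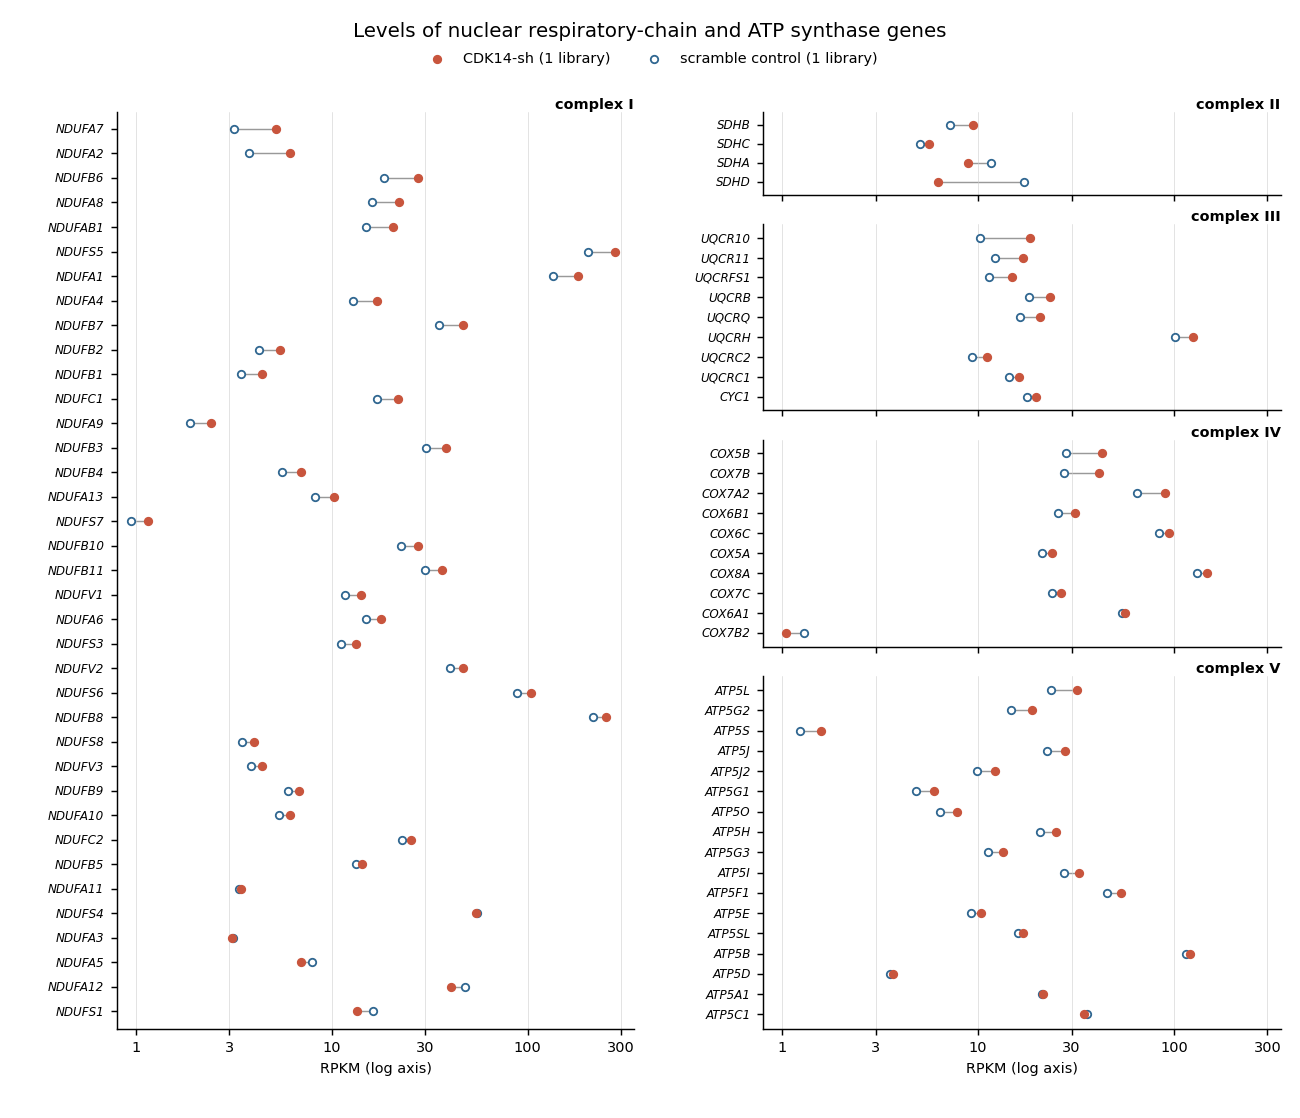
Level in RPKM on a log axis of 77 of the 78 genes, by complex, with filled points for CDK14-sh and open points for the scramble control (1 library each), ordered by fold within each complex. Levels span about 1 to 279 RPKM, and SDHD is the gene with the widest gap, at 6.23 RPKM in CDK14-sh and 17.2 RPKM in the scramble control.

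The levels of the genes among themselves spanned more than 2 orders of magnitude, while the folds between libraries stayed narrow. The highest level in CDK14-sh was that of NDUFS5 (279 RPKM), followed by NDUFB8 (252 RPKM), NDUFA1 (181 RPKM), COX8A (148 RPKM), UQCRH (125 RPKM) and ATP5B (121 RPKM). In the scramble control NDUFB8 (216 RPKM) stood above NDUFS5 (204 RPKM). The lowest of the genes that passed were COX7B2, NDUFS7 and ATP5S, at 1.04, 1.16 and 1.57 RPKM in CDK14-sh and 1.30, 0.941 and 1.23 RPKM in the scramble control. RPKM divides by all annotated exons of a gene, so a gene with long alternative exons has a low RPKM for its reads. UQCRB, with 3480 reads in CDK14-sh, against 3045 in the scramble control, thus came to 23.1 and 18.2 RPKM. Across the 78 genes the log2 ratio had little relation to the level (Pearson r 0.09 with the log2 mean RPKM, n = 78 genes from the same pair of libraries).

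Complex I takes electrons from NADH, and its genes leaned towards CDK14-sh. Of 38 genes 33 had a ratio above 1. A size of 1.2-fold was reached by 21 in the higher direction and by NDUFS1 in the lower, against 27.2% and 22.3% of all rows. The median fold was 1.21, and the summed level was 1413 RPKM in CDK14-sh and 1158 RPKM in the scramble control. In TPM the accessory subunits kept a median log2 ratio of 0.15, with 24 of 30 above 0, and the core subunits 0.10, with 6 of 7 above 0. On that scale 38.8% of all rows were above 0.

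Core subunits carry the flavin and the iron-sulphur clusters through which electrons pass. NDUFV1, which binds the flavin that oxidises NADH, stood at 14.1 RPKM in CDK14-sh and 11.7 RPKM in the scramble control, a fold of 1.203 (1.09 to 1.32). NDUFV2, an iron-sulphur subunit beside it, was at 47.0 and 40.2 RPKM, a fold of 1.17 (1.10 to 1.25). Both genes stood higher in CDK14-sh, with intervals above 1. NDUFS3, NDUFS7 and NDUFS8, which line the path of the electrons to ubiquinone, had folds of 1.19, 1.23 and 1.15, and the intervals of NDUFS7 (0.956 to 1.59) and NDUFS8 (0.969 to 1.36) included 1. NDUFS1, the largest iron-sulphur subunit of the NADH-oxidising arm, went the other way, at 13.5 RPKM (2561 reads) in CDK14-sh and 16.3 RPKM (3441 reads) in the scramble control, a fold of 0.828 (0.786 to 0.872). It was the lowest fold of complex I, although it sits in the same arm as NDUFV1 and NDUFV2.

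The accessory subunits surround and stabilise this core. NDUFA7, an accessory subunit of the NADH-oxidising arm, had the highest fold, with 5.17 RPKM (113 reads) in CDK14-sh and 3.17 RPKM (77 reads) in the scramble control, 1.63 (1.21 to 2.21). NDUFA2, of the same arm, was at 6.12 RPKM (141 reads) and 3.79 RPKM (97 reads), a fold of 1.62 (1.24 to 2.12). Both rest on few reads, and 33.5% of the NDUFA7 row lies in exons shared with other rows, among them the ribosomal protein gene RPS28. NDUFB6, in the membrane arm, stood at 27.5 RPKM (591 reads) in CDK14-sh and 18.5 RPKM (443 reads) in the scramble control, a fold of 1.48 (1.31 to 1.68). NDUFA8, another membrane-arm subunit, was at 22.05 RPKM (288 reads) and 16.0 RPKM (232 reads), a fold of 1.38 (1.16 to 1.65). NDUFAB1, the mitochondrial acyl carrier protein, which also works in fatty acid synthesis, was at 20.6 RPKM in CDK14-sh and 14.99 RPKM in the scramble control, a fold of 1.37.

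The most abundant accessory transcripts moved by unequal amounts. NDUFS5, whose gene lies on chromosome 1 (GRCh38, plus strand, 39026318 to 39034636), stood at 279 RPKM (2364 reads) in CDK14-sh and 204 RPKM (1924 reads) in the scramble control, a fold of 1.37 (1.29 to 1.45). NDUFB8, in the membrane arm, was at 252 RPKM (7790 reads) and 216 RPKM (7440 reads), a fold of 1.16 (1.13 to 1.2), with 48.5% of its row in exons shared with other rows. The intervals of NDUFS5 and NDUFB8 did not overlap. NDUFA1 was at 181 RPKM in CDK14-sh and 134 RPKM in the scramble control, a fold of 1.35, with 44.5% of its row shared with the antisense gene RNF113A. NDUFS6, of the NADH-oxidising arm, was at 104 and 88.8 RPKM, a fold of 1.17.

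A few accessory genes were level or lower in CDK14-sh. NDUFS4, a subunit of the NADH-oxidising arm in which inherited defects cause Leigh syndrome, was at 54.6 RPKM in CDK14-sh and 54.97 RPKM in the scramble control, a fold of 0.992 (0.910 to 1.08). NDUFA3 was at 3.08 RPKM (118 reads) and 3.14 RPKM (134 reads), a fold of 0.980 (0.758 to 1.26). NDUFA5, in the arm that reaches into the matrix, was at 6.93 RPKM (1056 reads) in CDK14-sh and 7.91 RPKM (1341 reads) in the scramble control, a fold of 0.876 (0.807 to 0.95). NDUFA12 was the lowest accessory gene, at 40.4 RPKM (1135 reads) in CDK14-sh and 48.0 RPKM (1501 reads) in the scramble control, a fold of 0.841 (0.778 to 0.909). NDUFA12 takes the place of the assembly factor NDUFAF2 late in complex I assembly, and NDUFAF2 stood at 165 RPKM in CDK14-sh and 110 RPKM in the scramble control, a fold of 1.51 (1.42 to 1.6). The accessory genes not named so far had folds from 1.02 (NDUFA11) to 1.31 (NDUFB7), above 1 by RPKM, with NDUFA11 and NDUFB5 below 1 in TPM. NDUFA4, which carries a complex I name but belongs to complex IV, was at 17.1 RPKM (940 reads) in CDK14-sh and 12.8 RPKM (782 reads) in the scramble control, a fold of 1.34 (1.21 to 1.47).

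**Figure D2:**
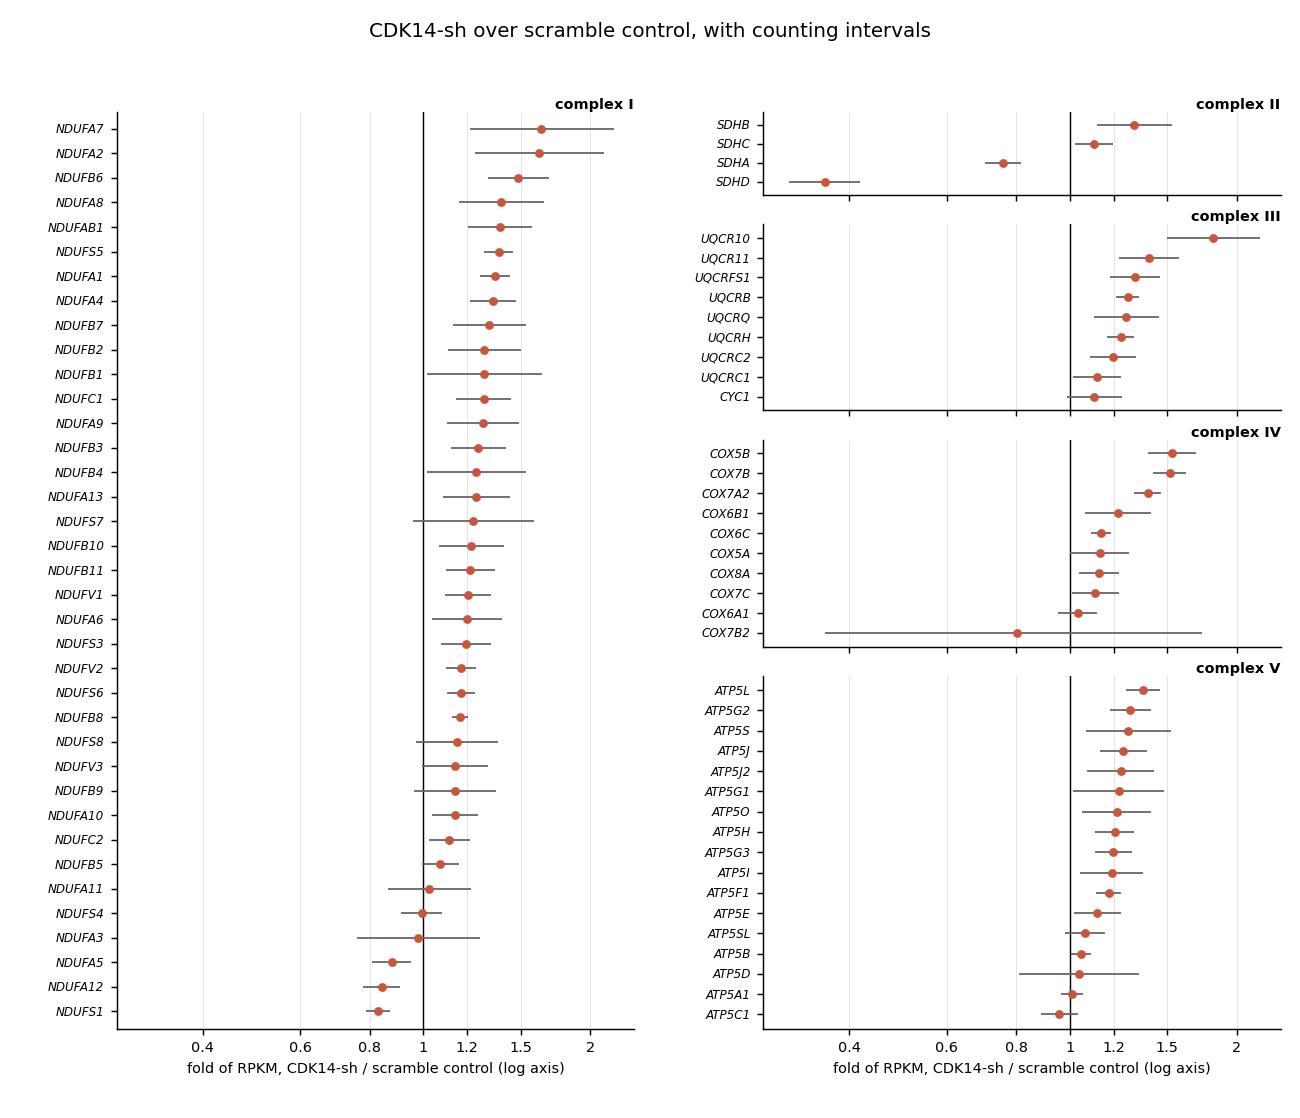
Fold of RPKM (CDK14-sh over scramble control, log axis) for 77 of the 78 genes by complex, where points are folds, bars are 95% counting intervals and the vertical line marks a fold of 1. SDHD, at 0.362, lies apart from every other gene, and the folds of complex III all lie above 1.

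Complex II oxidises succinate to fumarate and passes the electrons to ubiquinone, and its 4 genes did not move together. SDHD, which encodes the small membrane anchor that helps bind haem and ubiquinone, lies on chromosome 11 (GRCh38, plus strand, 112086773 to 112120013). It stood at 6.23 RPKM (242 reads) in CDK14-sh and 17.2 RPKM (744 reads) in the scramble control, which is 2.76-fold lower (a fold of 0.362, 0.312 to 0.419). SDHC, the other membrane anchor, was at 5.60 RPKM (1227 reads) in CDK14-sh and 5.06 RPKM (1234 reads) in the scramble control, a fold of 1.11 (1.02 to 1.2) that was just below 1 in TPM. Of the pair that forms the membrane anchor, SDHD was thus the more abundant by RPKM in both libraries, by a wide margin in the scramble control and a narrow one in CDK14-sh. SDHC had more reads in both, over summed exons of 14160 bases against 2509 for SDHD, so this order rests on the lengths.

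The catalytic head of complex II was split too. SDHA, the flavoprotein that binds succinate, was at 8.86 RPKM (1149 reads) in CDK14-sh and 11.7 RPKM (1688 reads) in the scramble control, a fold of 0.757 (0.702 to 0.817). SDHB, the iron-sulphur subunit that carries the electrons on, was at 9.37 RPKM (357 reads) and 7.17 RPKM (304 reads), a fold of 1.31 (1.12 to 1.53). The order of the catalytic pair by RPKM therefore differed between the libraries, with SDHB above SDHA in CDK14-sh, against below it in the scramble control. SDHA had more reads in both, over summed exons of 8383 bases against 2462 for SDHB, so this order too rests on the lengths. SDHA has 3 pseudogene rows, at up to 4.05 RPKM, and SDHD has 2, at no more than 0.242 RPKM; the sources used here do not say how reads that match both a gene and its pseudogene were counted. Exons of other rows cover 13.8% of the SDHD row. The summed level of complex II was 30.1 RPKM in CDK14-sh and 41.2 RPKM in the scramble control, a fold of 0.730 in which SDHD has the greatest weight. The median fold of the 4 genes was 0.932, with 2 genes on each side of 1, and 3 on the lower side in TPM.

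Complex III passes electrons from ubiquinol to cytochrome c, and all 9 of its genes were higher in CDK14-sh by RPKM, with CYC1 just below 1 in TPM. The median fold was 1.26, and 6 genes were at least 1.2-fold higher, against 27.2% of all rows. The summed level was 266 RPKM in CDK14-sh and 211 RPKM in the scramble control. UQCR10, a small membrane subunit on chromosome 22 (GRCh38, plus strand, 29767369 to 29770413), had the highest fold of all 78 genes, at 18.5 RPKM (279 reads) in CDK14-sh and 10.2 RPKM (171 reads) in the scramble control, 1.81 (1.49 to 2.21). UQCR11, another small subunit, was at 16.9 RPKM (563 reads) and 12.2 RPKM (451 reads), a fold of 1.39 (1.22 to 1.58).

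The subunits that carry out the electron transfer differed in fold. UQCRFS1, the Rieske iron-sulphur protein, was at 14.9 RPKM (799 reads) in CDK14-sh and 11.3 RPKM (677 reads) in the scramble control, a fold of 1.31 (1.18 to 1.46). CYC1, cytochrome c1, had the lowest fold of the complex, with 19.8 RPKM (604 reads) in CDK14-sh and 17.9 RPKM (607 reads) in the scramble control, 1.11 (0.987 to 1.24), an interval that includes 1. The core proteins UQCRC1 and UQCRC2, which have no redox group, had folds of 1.12 (1.01 to 1.24) and 1.197 (1.09 to 1.32). UQCRC1 was at 16.2 RPKM (809 reads) in CDK14-sh and 14.4 RPKM (804 reads) in the scramble control, and UQCRC2 at 11.1 RPKM (894 reads) and 9.25 RPKM (831 reads). Among the small subunits, UQCRH, the hinge protein that binds cytochrome c1, was the most abundant, at 125 RPKM (2725 reads) and 101 RPKM (2454 reads), a fold of 1.23 (1.17 to 1.30). UQCRB and UQCRQ, which sit near the ubiquinone site, had folds of 1.27 (1.21 to 1.34) and 1.26 (1.11 to 1.45). UQCRQ stood at 20.8 RPKM in CDK14-sh and 16.4 RPKM in the scramble control. All 5 small subunits were at least 1.2-fold higher, against 1 of the 4 larger ones, UQCRFS1.

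Complex IV reduces oxygen, and its catalytic subunits come from mitochondrial DNA, so the nuclear genes encode the subunits around them. Of its 12 rows 10 passed the level filter, with a median fold of 1.13 and 4 genes at least 1.2-fold higher, against 27.2% of all rows. In TPM its median log2 ratio was 0.03, the nearest to 0 of the proton-pumping complexes. The summed level was 555 RPKM in CDK14-sh and 461 RPKM in the scramble control.

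COX5B, a zinc-binding subunit on the matrix side, lies on chromosome 2 (GRCh38, plus strand, 97646040 to 97648383). It stood at 43.0 RPKM (960 reads) in CDK14-sh and 28.2 RPKM (699 reads) in the scramble control, a fold of 1.53 (1.38 to 1.69). COX7B, a small membrane subunit, was at 41.4 RPKM (1937 reads) and 27.3 RPKM (1423 reads), a fold of 1.51 (1.41 to 1.62). COX7A2, the common isoform of subunit VIIa, was at 89.6 RPKM (2666 reads) in CDK14-sh and 64.8 RPKM (2146 reads) in the scramble control, a fold of 1.38 (1.31 to 1.46). COX6B1, which faces the space between the membranes, was at 31.1 RPKM (451 reads) and 25.5 RPKM (411 reads), a fold of 1.22 (1.07 to 1.4). These 4 genes were the ones past 1.2-fold.

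The other general subunits of complex IV differed little between the libraries. COX8A, the most abundant, was at 148 RPKM (1160 reads) in CDK14-sh and 131 RPKM (1142 reads) in the scramble control, a fold of 1.13 (1.04 to 1.23), with 34.5% of its row shared with another row. COX6C was at 94.8 RPKM (4498 reads) and 83.4 RPKM (4401 reads), a fold of 1.14 (1.09 to 1.19). COX7C had 814 reads in each library, at 26.4 RPKM in CDK14-sh and 23.7 RPKM in the scramble control, so its fold of 1.11 (1.01 to 1.23) came from the difference in library totals. COX6A1 was at 56.0 RPKM (1165 reads) and 54.2 RPKM (1255 reads), a fold of 1.03 (0.953 to 1.12), which was below 1 in TPM. The folds of COX5B, COX7B and COX7A2 lay above the intervals of COX6C, COX8A, COX7C and COX6A1, so by counting error the nuclear subunits of complex IV did not share 1 fold.

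Tissue-restricted isoforms of complex IV were near absent in both libraries. COX7B2, best known from testis, had 13 reads (1.04 RPKM) in CDK14-sh and 18 reads (1.30 RPKM) in the scramble control, a fold of 0.803 (0.362 to 1.73). By RPKM it made up 2.45% of COX7B and COX7B2 together in CDK14-sh, against 4.53% in the scramble control. Summed exons are 807 bases for COX7B2 and 3024 for COX7B, so these shares depend on the lengths. COX7A1, the heart and muscle isoform, had 1 read in each library and made up 0.0716% of COX7A1 and COX7A2 in CDK14-sh, against 0.0889% in the scramble control. COX6B2, the testis isoform of COX6B1, had no read in either. A count of 0 allows up to 3 reads in each library, so its absence holds only to that depth. COX6A2, COX8C and COX4I2 were not analysed here.

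Complex V, the ATP synthase, was divided by its structure among the genes that the naming rule took. Its 17 genes that passed had a median fold of 1.199, and 8 were at least 1.2-fold higher, with none lower by that size, against 27.2% and 22.3% of all rows. The summed level was 438 RPKM in CDK14-sh and 389 RPKM in the scramble control, a fold of 1.13. The remaining row, the processed pseudogene ATP5J2LP, had no read in CDK14-sh, against 1 in the scramble control.

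The F1 head, the catalytic part, showed the least difference. ATP5B, which encodes the catalytic beta subunit, stood at 121 RPKM (4331 reads) in CDK14-sh and 115 RPKM (4597 reads) in the scramble control, a fold of 1.05 (1.01 to 1.09). ATP5A1, the alpha subunit, was at 21.4 RPKM (3620 reads) and 21.3 RPKM (3991 reads), a fold of 1.01 (0.964 to 1.06). ATP5C1, the gamma subunit of the central shaft, was the lowest of the complex, at 34.6 RPKM (1244 reads) in CDK14-sh and 36.1 RPKM (1445 reads) in the scramble control, a fold of 0.958 (0.887 to 1.03). The other shaft genes, ATP5D (delta) and ATP5E (epsilon), had folds of 1.04 (0.810 to 1.33) and 1.12 (1.02 to 1.24). ATP5D stood at 3.68 RPKM (128 reads) in CDK14-sh and 3.54 RPKM (137 reads) in the scramble control. No gene of the head passed 1.2-fold, and the median log2 ratio of the 5 was 0.05 by RPKM, against 0.04 for all rows, and turned to -0.10 in TPM, against -0.11 for all rows, where only ATP5E stayed above 0.

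The stalk and membrane genes that the naming rule took lay higher than the head. ATP5L (subunit g), on chromosome 11 (GRCh38, plus strand, 118401154 to 118431496), was at 31.8 RPKM (1666 reads) in CDK14-sh and 23.5 RPKM (1367 reads) in the scramble control, a fold of 1.36 (1.26 to 1.46). ATP5J2 (subunit f) and ATP5I (subunit e), also of the membrane part, had folds of 1.24 and 1.19, and 61.6% of the ATP5I row is shared with MYL5. ATP5J (coupling factor 6), in the peripheral stalk that holds the head still, was at 27.9 RPKM (883 reads) and 22.3 RPKM (786 reads), a fold of 1.25 (1.13 to 1.38). ATP5F1 (subunit b), the most abundant stalk gene, was at 53.4 RPKM (2797 reads) in CDK14-sh and 45.5 RPKM (2648 reads) in the scramble control, a fold of 1.17 (1.11 to 1.24). ATP5H (subunit d) and ATP5O (OSCP, which joins the stalk to the head) had folds of 1.21 and 1.22. The folds of the 4 stalk genes ran from 1.17 to 1.25 and those of the 6 membrane genes from 1.19 to 1.36, all above the 5 head genes at 0.958 to 1.12. In TPM all 10 stayed above 1. USMG5 and C14orf2, complex V subunits that the naming rule missed, had folds of 1.03 and 1.08, within the range of the head. All 4 stalk genes, 5 of the 6 membrane genes (ATP5G1 is the exception) and 2 of the 5 head genes share exon bases with another row. The genes of complex V that share none are ATP5SL, ATP5G1 and the head genes ATP5B, ATP5D and ATP5C1. Their median log2 ratio of 0.07 therefore reflects mostly the head, and ATP5G1 was at 0.29. The higher folds of the other stalk and membrane genes come from rows that overlap others, and the part of overlap in them was not tested. The parts also differed in length, with a median coding length of 894 bases in the head, 561 in the stalk and 358.5 in the membrane part. The part of length in this division was not tested. The division into parts was made with the values known, so it is a description.

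ATP5G1, ATP5G2 and ATP5G3 encode the same mature subunit c, the ring that turns with the proton flow, with different import sequences. ATP5G2 was at 18.9 RPKM (1165 reads) in CDK14-sh and 14.7 RPKM (1009 reads) in the scramble control, a fold of 1.28 (1.18 to 1.4). ATP5G1 and ATP5G3 had folds of 1.22 (1.02 to 1.48) and 1.199 (1.11 to 1.29). By RPKM the 3 genes gave 15.5%, 49.4% and 35.1% of the subunit c transcripts in CDK14-sh and 15.8%, 47.8% and 36.4% in the scramble control, in the order ATP5G1, ATP5G2, ATP5G3. The summed level was thus higher in CDK14-sh (38.2 RPKM, against 30.7 RPKM in the scramble control) with nearly the same makeup. Of the named rows that are not subunits, ATP5S was at 1.57 RPKM (275 reads) in CDK14-sh and 1.23 RPKM (240 reads) in the scramble control, a fold of 1.27 (1.07 to 1.52), and ATP5SL had a fold of 1.07 (0.982 to 1.16), below 1 in TPM.

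**Figure D3:**
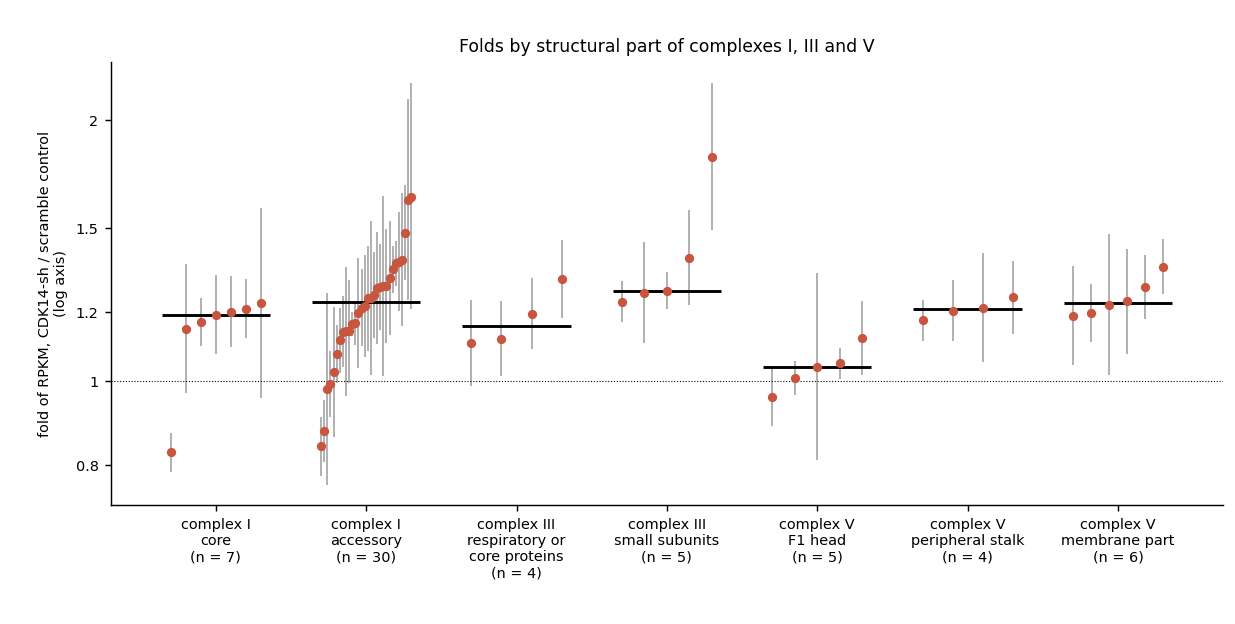
Fold of RPKM (CDK14-sh over scramble control, log axis) of the genes of complexes I, III and V by structural part, where points are genes in rising order, vertical bars are 95% counting intervals and black lines are medians. The 5 genes of the F1 head lie between 0.958 and 1.12, below the 10 genes of the peripheral stalk and the membrane part of the same enzyme. USMG5 and C14orf2, which the naming rule missed, are not drawn.

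Promoter sequences are shown because NRF1, the ETS factor GABP and YY1 are known regulators of respiratory genes, and because SDHD, with the largest difference, carries motifs of the first pair. RefSeq promoter windows on GRCh38.p14 (250 bases before to 50 bases after the transcript start) were found for 64 of the 81 genes and searched on both strands. The NRF1 motif GCATGCG was present in 13 of them (20.3%), against 4.13% of all 27305 promoters and 6.94% of the 8801 promoters of expressed protein-coding genes. Genes from both ends of the folds are given as examples, 5' to 3' on the gene's strand, with the first match of the motif or its reverse complement in capitals.
COX5B: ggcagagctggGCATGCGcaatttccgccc
NDUFA8: gttgccggatgCGCATGCgcaggcgccgtg
SDHB: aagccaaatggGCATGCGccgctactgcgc
ATP5C1: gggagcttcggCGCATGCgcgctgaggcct
SDHD: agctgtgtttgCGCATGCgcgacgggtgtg
They lie at chr2:97645915-97645944 (plus strand) for COX5B, chr9:122159764-122159793 (minus) for NDUFA8, chr1:17054214-17054243 (minus) for SDHB, chr10:7788145-7788174 (plus) for ATP5C1 and chr11:112086753-112086782 (plus) for SDHD. Counted from the transcript start, the match begins at -136 in COX5B, -3 in NDUFA8, -200 in SDHB, -21 in ATP5C1 and -109 in SDHD. The folds were 1.53 for COX5B, 1.38 for NDUFA8, 1.31 for SDHB, 0.958 for ATP5C1 and 0.362 for SDHD, so genes with this motif covered much of the range of folds. The median log2 ratio was 0.27 with the motif (n = 13) and 0.27 without it (n = 50).

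The ETS motif CCGGAAG was present in 18 of the 64 promoters (28.1%), against 10.7% of all promoters and 21.1% of those of expressed protein-coding genes. Genes with it had a median log2 ratio of 0.31 (n = 18) and genes without it 0.26 (n = 45). Examples from both ends of the folds are shown in the same way, with the motif or its reverse complement in capitals.
COX5B: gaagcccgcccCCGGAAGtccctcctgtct
UQCR11: tccaaccctcgCCGGAAGttactgtaagtg
NDUFS1: ggctggggccaCTTCCGGcggaactgcggg
SDHD: ccgcctctcgaCTTCCGGttcacccagcat
COX5B (chr2:97646014-97646043, plus strand) had a fold of 1.53, UQCR11 (chr19:1605561-1605590, minus strand) 1.39, NDUFS1 (chr2:206159583-206159612, minus strand) 0.828 and SDHD (chr11:112086785-112086814, plus strand) 0.362. The YY1 motif AAGATGG was present in 16 of the 64, against 6.06% of all promoters and 8.07% of expressed ones, with a median of 0.26 (n = 16) and of 0.29 without it (n = 47). A match of letters is a description and not a binding site.

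A set of 4 short words in the 3' untranslated region (UTR) was also searched. The first of them is GTCATGC, which overlaps the second, TCATGCA. The third is ATCCATA, and it overlaps the last, TCCATAA. They were picked earlier from the ratios of all genes in these libraries, so their presence supports nothing further and only the place of the respiratory genes is given here. Of the 78 genes 13 (16.7%) carried at least 1 word, against 24.96% of 10559 protein-coding rows. The 13 had a median log2 ratio of 0.16, with 3 below 0, and the 65 without a word had 0.28, with 6 below 0. Among protein-coding rows the medians were -0.09 with a word and 0.07 without. UTR length moved with this: the median UTR was 3607 bases in the 13 genes and 262 bases in the 65. The part of UTR length in this was not tested. GTCATGC occurred in SDHD, NDUFV2 and NDUFB2, shown 5' to 3' with the word in capitals.
SDHD: gcctctgctttGTCATGCcattaagctcac
NDUFV2: tcttactgtacGTCATGCactgctgagctc
NDUFB2: gaggatgtactGTCATGCcaagcctactga
These sites are at chr11:112095014-112095043, chr18:9103798-9103827 and chr7:140722736-140722765, all on the plus strand (GRCh38, GENCODE v29 transcripts). The longest UTR of each gene was searched, and other transcripts of a gene can end before the site. The site lies in the UTR of 5 of the 7 basic protein-coding transcripts of SDHD, of 1 of 3 of NDUFV2 and of 1 of 10 of NDUFB2, and which of them these cells use was not measured here. SDHD was at a fold of 0.362, while NDUFV2 was at 1.17 and NDUFB2 at 1.29 (5.45 RPKM in CDK14-sh and 4.23 RPKM in the scramble control). In complex II, 3 of the 4 genes carried a word: SDHD, SDHA (TCATGCA) and SDHC (ATCCATA, at 2 places). SDHB, the highest of the 4, carried none. The SDHA site lies in the UTR of 4 of its 4 coding transcripts, and each SDHC site in that of 1 of 5. Of the lower genes outside complex II, NDUFA5 carried ATCCATA, and NDUFS1, NDUFA12 and ATP5C1 carried none.

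Genes that work beside the nuclear subunits were compared to see whether the shift was shared. The 13 subunits encoded by mitochondrial DNA were all higher in CDK14-sh by RPKM, with folds from 1.05 (MT-ND3) to 1.24 (MT-ATP8). Their median log2 ratio was 0.26 and 6 genes were at least 1.2-fold higher, against 27.2% of all rows. In TPM 11 of the 13 stayed above 0 and none was 1.2-fold higher, against 38.8% and 16.3% of all rows. Their medians by complex were 0.27 for complex I (7 genes), 0.18 for complex III (MT-CYB), 0.24 for complex IV (3 genes) and 0.29 for complex V (2 genes), near those of the nuclear genes of the same complexes except for complex III, where the nuclear median was 0.34. Cytochrome c (CYCS), which carries electrons between complexes III and IV, was at 82.2 RPKM in CDK14-sh and 63.0 RPKM in the scramble control, a fold of 1.31. ATPIF1, the inhibitor of the ATP synthase, was at 33.0 and 26.3 RPKM, a fold of 1.25. The subunit genes that the naming rule missed had folds of 1.38 (COX7A2L), 1.30 (UQCRHL), 1.08 (C14orf2), 1.07 (COX4I1) and 1.03 (USMG5), the last 3 of these below 1 in TPM.

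Assembly factors, which build the complexes and are not part of them, had a median log2 ratio of 0.24 over 54 genes, with 39 above 0. Of these 54, 25 (46.3%) were past 1.2-fold in the higher direction and 3 in the lower, against 27.2% and 22.3% of all rows. In TPM their median was 0.09, with 30 (55.6%) above 0, against 38.8% of all rows. COX14, a complex IV assembly factor, was the only one past 2-fold, at 7.71 RPKM (128 reads) in CDK14-sh and 3.52 RPKM (65 reads) in the scramble control, 2.19 (1.61 to 3.0). COA4, also of complex IV, was at 17.9 and 9.15 RPKM, a fold of 1.96, and C17orf89, of complex I, was at 49.8 and 29.2 RPKM, a fold of 1.71. SDHAF3, which assists the maturation of SDHB, had a fold of 1.72 (1.41 to 2.12). All 4 complex II assembly factors were higher by RPKM, with a median log2 ratio of 0.39, and 3 of the 4 stayed above 1 in TPM. The genes of complex II itself had a median of -0.13. SDHAF2, like SDHAF3, had an interval above 1 (1.14 to 1.68). The intervals of SDHAF1 (a fold of 1.26, 0.792 to 2.02) and SDHAF4 (1.06, 0.725 to 1.54) included 1. SDHAF1 had 42 CDK14-sh reads, against 37 for the control, and SDHAF4 had 58, against 61. By counting error, SDHAF1 and SDHAF4 therefore show no clear direction. The lowest assembly factors were COX11 (1.37-fold lower), ATPAF2 (1.37-fold lower) and TMEM126A (1.27-fold lower).

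Of the pathways that feed and support the chain, the tricarboxylic acid cycle, the regulators and the MICOS genes had medians near that of all rows, and ubiquinone synthesis and the carriers had higher ones. The median of all rows was 0.04 by RPKM and -0.11 in TPM, since the scale moves every row alike. The tricarboxylic acid cycle had a median log2 ratio of 0.08 over 13 genes, with 2 past 1.2-fold in the higher direction and 3 in the lower, against 27.2% and 22.3% of all rows. Its median turned to -0.07 in TPM, where that of all rows was -0.11. DLST, a subunit of the oxoglutarate dehydrogenase complex, was the lowest, at 5.17 RPKM in CDK14-sh and 8.94 RPKM in the scramble control, 1.73-fold lower. Genes of ubiquinone synthesis had a median of 0.17 over 12 genes, 11 of them above 0, or 6 of 12 in TPM, against 54.7% and 38.8% of all rows. COQ3, a methyltransferase of that pathway, was at 8.07 RPKM in CDK14-sh and 4.14 RPKM in the scramble control, a fold of 1.95. Regulators of respiratory genes had a median of 0.06 over 11 genes, which turned to -0.09 in TPM, again beside -0.11 for all rows. TFAM, which packages and transcribes mitochondrial DNA, was at 14.8 RPKM in CDK14-sh and 20.7 RPKM in the scramble control, 1.396-fold lower. NRF1 itself had a fold of 0.932 (0.765 to 1.13), and ESRRA, a nuclear receptor that acts on respiratory genes, a fold of 1.32 (1.10 to 1.58). Among carriers and porins, VDAC3 was 1.98-fold lower, at 12.7 RPKM in CDK14-sh and 25.2 RPKM in the scramble control, while the median of the 7 genes was 0.21. The cristae-organising MICOS genes had a median of 0.04 over 7 genes, which turned to -0.12 in TPM, beside -0.11 for all rows, and to -0.01 when ratios were centred on the median of all rows. They ranged from APOOL, 1.57-fold lower, to APOO, with a fold of 1.36. At least 1.2-fold higher were 3 of the 7 and 1 was lower by that size, against 27.2% and 22.3% of all rows.

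**Figure D4:**
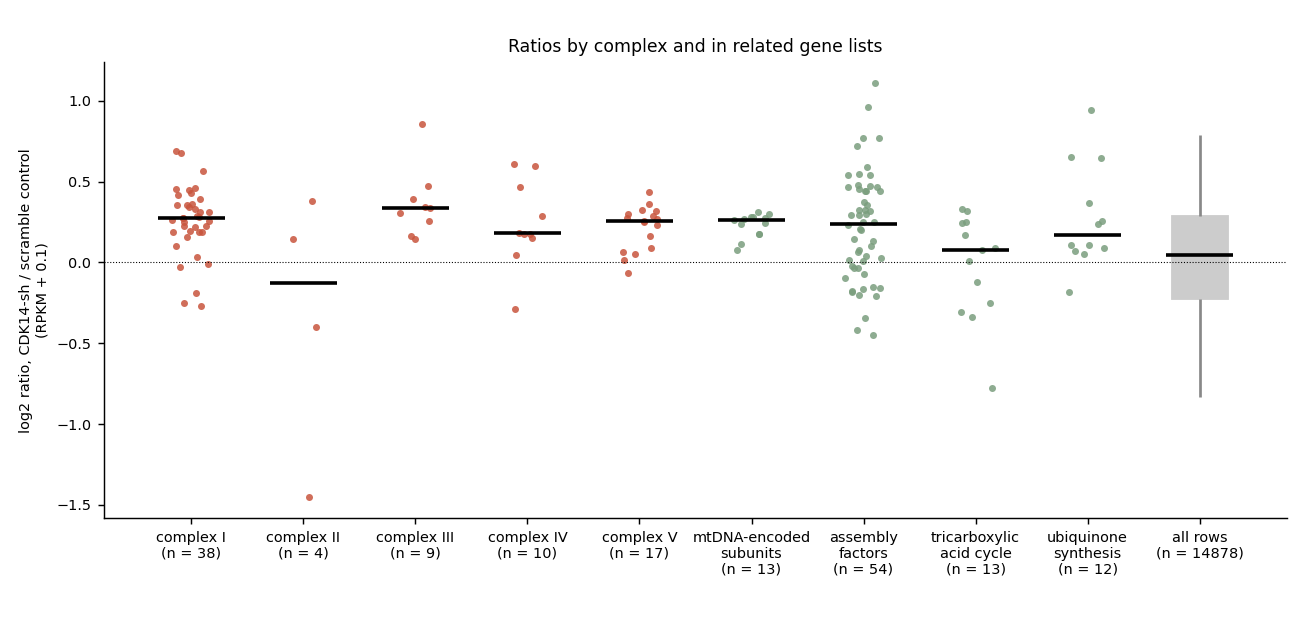
Log2 ratio of (RPKM + 0.1), CDK14-sh over scramble control, for each gene of the 5 complexes and of 4 related lists, where points are genes and black lines medians. The box for all rows spans percentiles 25 to 75 (-0.22 to 0.29) and its line percentiles 5 to 95 (-0.83 to 0.79), and the medians of complexes I, III, IV and V (0.27, 0.34, 0.18 and 0.26) lie above its median of 0.04.

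Most respiratory subunits are short proteins, and short genes as a class were higher in CDK14-sh by RPKM. Protein-coding rows were put into 4 classes of equal size by the longest coding length. The shortest class (up to 864 bases) had a median log2 ratio of 0.14, with 66.5% of 2636 rows above 0 and 35.2% at least 1.2-fold higher. The next class (864 to 1398 bases) had a median of 0.07, the class from 1398 to 2235 bases about 0, and the longest -0.05. The TPM scale moves every ratio by about -0.15, which is about the size of the median of the shortest class. Only the order of the classes, and not the direction of the shortest, is therefore free of the scale. Of the respiratory genes 65 were in the shortest class, with a median of 0.29, 59 above 0 and 37 (56.9%) at least 1.2-fold higher. Another 7 were in the next class, with a median of 0.26, and 6 were between 1398 and 2235 bases, with a median of 0.04 and none at least 1.2-fold higher. These 6 include the longest, NDUFS1 and SDHA, which were both at least 1.2-fold lower (folds of 0.828 and 0.757). Lengths within a class were not matched. Across the 78 genes the ratio had a Pearson r of -0.28 and a Spearman rho of -0.35 with the log2 coding length, and across 10582 protein-coding rows r was -0.18 and rho -0.21. These are descriptions across genes of the same pair of libraries. RNA quality and fragment size were not measured in the files, and the part of transcript length in the shift was not tested beyond these classes.

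**Figure D5:**
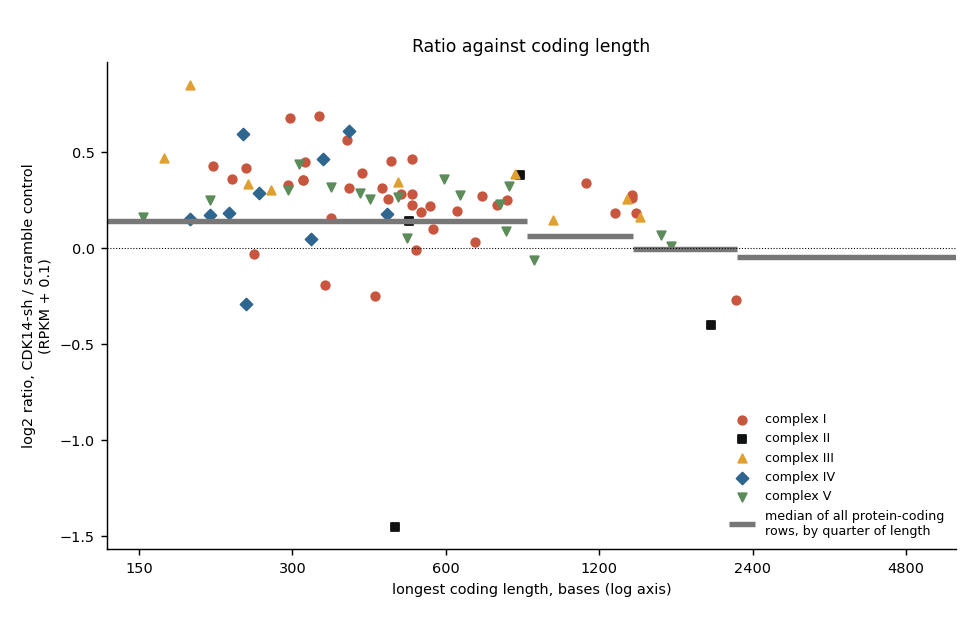
Log2 ratio of (RPKM + 0.1), CDK14-sh over scramble control, against the longest coding length in bases (log axis) for the 78 genes, marked by complex, with grey bars for the medians of all protein-coding rows in 4 length classes (the bar of the longest class runs past the axis). Most genes lie above the grey bar of the shortest class at 0.14, and the longest 2 genes, NDUFS1 and SDHA, lie below 0.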

How the data were processed

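Total RNA was made into libraries with a stranded mRNA kit, per the labels' protocols. The authors deposited RPKM values for both libraries in a single table that also gives exon positions and summed exon lengths, per the file headers. Tools listed in the submitters' processing notes are featureCounts, Subread (1.5.1) and Bowtie (0.12.2), and the builds listed are mm8 and GRCh38, with no roles. How strand, overlaps and multi-mapping reads were treated is not stated in the labels, headers or notes; 41 of the 81 genes share exon bases with another row, 9 of them over 30% of their length, so those reads cannot be told apart. Of the 81 rows, 79 matched GENCODE v29 on GRCh38 with the same start and end.

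RPKM times length gave whole reads for 100% of nonzero values (within 0.01 read), which served for counting intervals. A count test was not run, since each group held 1 library, and RPKM stayed the main value. PCR copies are not independent molecules. The log2 ratio of CDK14-sh over the scramble control was taken after adding 0.1 to each RPKM, over rows that reach 1 RPKM in either library. The genes, lists and size thresholds were chosen with earlier results of these data known, and the structural parts and promoter examples after the values were seen. Named in full were the 4 highest and 4 lowest folds and the 2 highest levels of each complex, every gene past 2-fold, and tissue isoforms. A single gene of complex I is counted but not reported here by name or in the plots that name genes. From related lists some of the extremes were named, with NRF1 and the missed subunits added after their values were seen. Reads simulated with known folds tested the calculation. In all 14 alternatives were run, 3 of them (a read minimum, no pseudogene row, no UTR word) added after seeing the data. Calculations ran in Python 3.11.15 with scipy 1.17.1, pandas 2.3.3 and numpy 2.4.6, and figures were drawn with matplotlib 3.10.9.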

Additional observations from a re-analysis of the deposited data

How the results depend on the processing

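No paired analysis was possible because there was 1 library on each side. Of 126 summary values under 14 alternatives 114 stayed and 12 did not. A median stayed if it moved less than the typical counting error of its single genes, which is wider than that of the median itself. A count stayed if it kept within 1.5 times. In TPM 5 moved: the median log2 ratio of the 78 genes became 0.12, of complex III 0.19, of complex IV 0.029 and of complex V 0.11, and 14 genes were at least 1.2-fold higher. The scale alone moved these. Complex I counts as unmoved by this rule, although its median fell from 0.27 to 0.13 in TPM. With rows that overlap no other row, 38 genes were left, the median of complex V was 0.068, 18 genes were at least 1.2-fold higher and 0 were 2-fold lower, since SDHD was left out. The complex V genes left were mostly those of the F1 head. Leaving out genes with a pseudogene row of the same name removed SDHD and SDHA and gave complex II a median of 0.26, with 0 genes 2-fold lower. Leaving out genes with a 3' UTR word left SDHB alone in complex II, at 0.38, again with 0 genes 2-fold lower. The words were picked from the ratios of these same libraries, so this alternative is not an independent check. Of 614 values of single genes 572 stayed within the gene's own counting error, 42 moved, and SDHD, past 2-fold, kept its direction wherever it was kept. A library per group limits every value: the intervals hold counting error only, and genes with few reads, such as NDUFA7, NDUFA2, NDUFS7 and COX7B2, have the widest.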
